A study of Mus musculus with 31 samples.

Results

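The NMDA receptor is a glutamate-gated cation channel whose pore is blocked by extracellular magnesium until the membrane is depolarized, and this block is the textbook action of magnesium at the glutamatergic synapse. The receptor is built around the obligatory GluN1 subunit, encoded by Grin1. The GluN2 subunits (Grin2a to Grin2d) bind glutamate and set the kinetics and the strength of the magnesium block, while the GluN3 subunits (Grin3a, Grin3b) lower calcium permeability and magnesium sensitivity. In the rodent forebrain, GluN2B and GluN2D predominate early in life, GluN2A appears later and GluN2C is best known from the cerebellum.

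The 7 genes that encode these subunits were chosen by name, and all their probes were kept. They were matched by 10 probes, among 26345 probes of 19902 genes with a gene symbol on the arrays. Grin1, Grin2a and Grin2b each had a pair of probes and the other genes had 1. Where a gene had a pair, probe 1 is the leading probe, with the higher mean Cy3 signal (A_65_P18935 for Grin1, A_55_P1980481 for Grin2a and A_52_P1044964 for Grin2b), and probe 2 the other (A_55_P2033366, A_55_P1974035 and A_51_P320357). Grin2c was measured by A_55_P1970090, Grin2d by A_55_P2125997, Grin3a by A_55_P1980471 and Grin3b by A_51_P397934.

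The arrays were 31 competitive hybridizations of forebrain RNA from NMRI mice treated at postnatal day 5, each array holding a Cy3-labelled and a Cy5-labelled pool of 6 hemispheres. Experiment 1 set mice given MgSO4 at 600 mg/kg (Cy5) against control mice (Cy3) with 7 arrays at 6 h and 4 each at 3, 12 and 24 h after the injection. Experiment 3 set hypoxia–ischemia (HI, ligature of the right carotid followed by hypoxia, titled RV PBS, Cy5) against control (Cy3), with 3 arrays at 3 h and 3 at 12 h. Experiment 2 (titled RV Mg, 3 arrays at each time) compared MgHI, in which MgSO4 preceded HI by 1 h, with HI. The labels give a subcutaneous injection and controls that received PBS, whereas the methods give an intraperitoneal injection and untreated controls. The treatment label of the HI samples names MgSO4, against their titles and source, and they were taken as HI alone. The labels and methods place MgHI in Cy5 of the RV Mg arrays, the study's figures place it in Cy3, and the titles name Mg-treated mice without HI as the reference, so values of these arrays are given by channel. The labels describe pools of 3 males and 3 females, the methods sex-matched pools from several litters. Replicate arrays were biological replicates by their labels, and each is a pool, so that the spread between arrays is not that between animals.

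Signal over background was uneven between arrays, with 45.2% to 69.7% of spots well above background in Cy3 and 54.4% to 70.2% in Cy5. All 8 neuronal markers listed were well above background in Cy3 on every array. Among the 7 arrays at 6 h of MgSO4, the correlation of log2 ratios over 16760 probes ran from -0.46 to 0.61 between slides and from 0.21 to 0.88 within a slide. The lowest, -0.46, was between replicates 2 and 3, and the methods state the same dyes for every array, so the labelled direction was kept. These correlations do not settle the direction, and turning the sign of an array turns its values. Between RV PBS or RV Mg arrays of 1 group it was between 0.23 and 0.73. In pooled hemispheres, fewer cells of a type and less RNA per cell cannot be told apart.

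Detection was uneven among the subunits. Grin1 probe 1 and Grin2b probe 1 were well above background in both channels on all 31 arrays. Grin2b probe 2 was above background on 28 arrays in Cy3 and 31 in Cy5, Grin2c on 29 and 31, Grin3a on 28 and 28, and Grin2a probe 1 on 25 and 28. These probes carry most of what follows. Grin1 probe 2 was above background on 17 arrays in Cy3 and 18 in Cy5, Grin2d on 16 and 16, Grin2a probe 2 on 10 and 10, and Grin3b on 9 and 7. None was marked as saturated, and a single member spot (Grin2d at 24 h, replicate 3) was left out as an outlier. Probes entered the test of a group where 66.7% of its arrays or more showed them above background in 1 channel or both, which can let in a probe through the channel in which it is higher.

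**Figure D1:**
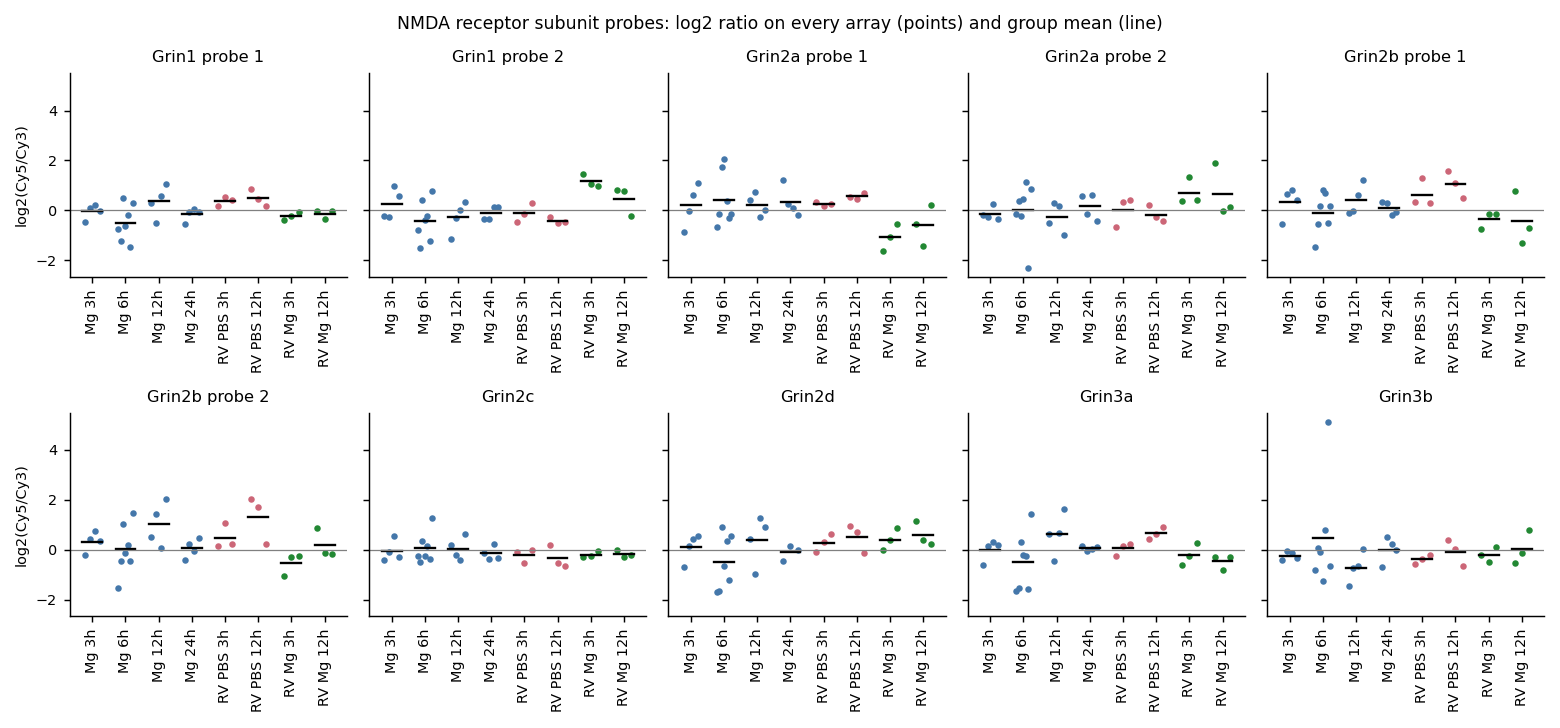
Log2 ratio of Cy5 to Cy3 (vertical axis) of the 10 NMDA receptor subunit probes on every array, by group (horizontal axis). Points are arrays, lines are group means, blue is Experiment 1, red is HI against control and green is the RV Mg arrays. Grin2b probe 1 lay above 0 on the 6 HI arrays, Grin2a probe 1 on the same 6, and the 6 h arrays of MgSO4 spread widely around 0.

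Grin2b, which encodes the main glutamate-binding subunit of the neonatal forebrain, had the largest mean ratios of the subunits in HI at both times among the probes tested. At 3 h after HI, the log2 ratio to control of probe 1 was 0.32, 1.28 and 0.28 on the 3 arrays and that of probe 2 was 0.13, 1.05 and 0.22. At 12 h, probe 1 was at 1.57, 1.08 and 0.48 and probe 2 at 2.03, 1.69 and 0.21. Every array gave a higher signal in the HI pool with both probes, with replicate 2 the highest at 3 h and replicate 3 the lowest at 12 h. Such agreement in sign over 3 arrays was common, since 57.5% of all probes tested at 3 h and 50.5% at 12 h lay on 1 side of 0 on all arrays.

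The mean log2 ratio of Grin2b at 12 h of HI was 1.05 ± 0.55 with probe 1 (SD, n = 3, 95% interval 0.48 to 1.61, limma adjusted p = 0.083) and 1.31 ± 0.97 with probe 2 (0.40 to 2.22, adjusted p = 0.107). At 3 h the means were 0.63 ± 0.57 (0.07 to 1.19, adjusted p = 0.110) and 0.47 ± 0.51 (-0.04 to 0.97, adjusted p = 0.161). None of these passed the adjusted threshold. The difference between 12 h and 3 h was 0.42 (limma adjusted p = 0.551) and 0.85 (adjusted p = 0.397), and the arrays of the times overlapped with both probes. Leaving out replicate 3 at 12 h gave means of 1.33 and 1.86 with limma adjusted p of 0.00774 and 0.00381. That array had the lowest Grin2b ratios, so leaving it out raises the means by construction and is no separate evidence of a difference. In single channels, mean Cy5 (HI) of probe 1 was -1.24 ± 0.71 at 3 h and -1.56 ± 0.81 at 12 h. Its mean Cy3 (control) was -1.87 ± 0.14 and -2.61 ± 0.42. With probe 2, mean Cy5 was -1.999 ± 0.65 and -2.52 ± 0.88, and mean Cy3 -2.47 ± 0.18 and -3.83 ± 0.45. The larger mean ratios at 12 h thus went with a lower mean control signal, not a higher mean HI signal.

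The obligatory subunit gene Grin1 was also higher in HI with probe 1, but not with probe 2. Probe 1 was at 0.16, 0.54 and 0.42 at 3 h and at 0.85, 0.46 and 0.19 at 12 h, all above 0. Its means were 0.37 ± 0.20 (SD, n = 3, limma adjusted p = 0.0587) and 0.50 ± 0.33 (adjusted p = 0.135). Probe 2 was at -0.46, -0.13 and 0.29 at 3 h, with a mean of -0.10 ± 0.37 (adjusted p = 0.659), and was not tested at 12 h, where it was above background on 1 of 3 arrays in each channel. The probes of Grin1 therefore did not give the same sign.

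Grin2a, the GluN2A gene of the later forebrain, varied least between HI arrays of the probes tested. Probe 1 was at 0.33, 0.19 and 0.26 at 3 h and at 0.55, 0.45 and 0.70 at 12 h, so that every array at 12 h lay above every array at 3 h. The means were 0.26 ± 0.07 (SD, n = 3, limma adjusted p = 0.0587) and 0.57 ± 0.13 (adjusted p = 0.083), and the difference between times was 0.31 (95% interval 0.03 to 0.59, adjusted p = 0.254). Non-overlapping times were found for 25.5% of the probes tested, an unadjusted p below 0.05 for 17.7% (with 2 of 7 member probes, Grin2a probe 1 and Grin3a), and 0.0377% were called, none of them a member probe. On the slide that held an HI array of each time, the difference was 0.28. In single channels, mean Cy5 (HI) was -3.65 ± 0.31 at 3 h and -3.64 ± 0.95 at 12 h, and mean Cy3 (control) -3.91 ± 0.35 and -4.21 ± 1.00. The mean HI signal thus hardly differed between the times. Probe 2 was well above background on no HI array.

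Grin3a, a GluN3 gene of the developing brain, was near 0 at 3 h and higher at 12 h of HI. Its ratio was -0.24, 0.14 and 0.24 at 3 h and 0.42, 0.64 and 0.92 at 12 h, without overlap. The mean was 0.05 ± 0.25 at 3 h (SD, n = 3, limma adjusted p = 0.781) and 0.66 ± 0.25 at 12 h (95% interval 0.29 to 1.02, adjusted p = 0.0852). The difference of 0.61 (0.17 to 1.05) had a limma adjusted p of 0.188, and within the slide that held both times it was 0.18. In single channels, mean Cy5 (HI) was -2.10 ± 0.37 at 3 h and -1.94 ± 0.74 at 12 h, and mean Cy3 (control) -2.15 ± 0.27 and -2.59 ± 0.93. At 12 h, Grin3a was the single member probe that passed the methods' t-test without adjustment at the 1.5-fold threshold, as did 4.94% of the probes tested.

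The remaining subunits showed smaller or less even ratios in HI. Grin2c, the cerebellar subunit gene, was at -0.09, -0.54 and -0.01 at 3 h and at 0.18, -0.54 and -0.64 at 12 h, with means of -0.22 ± 0.29 (adjusted p = 0.256, limma, n = 3) and -0.33 ± 0.45 (adjusted p = 0.316). Grin2d, the early GluN2D gene, had means of 0.27 ± 0.37 (adjusted p = 0.244) and 0.51 ± 0.57 (adjusted p = 0.221), with 2 of 3 arrays above 0 at each time. Grin3b was at -0.56, -0.36 and -0.23 at 3 h, lower in the HI pool on all 3 arrays, as was Grin2c. It was well above background in Cy3 on all 3 arrays and in Cy5 on none, so it entered the test through the channel in which it was higher. Only a bound holds, by which the control pool was at least 1.08-fold higher after normalization of the single channels (limma adjusted p of the fit = 0.0481), and the fitted ratio did not reach the 1.5-fold threshold.

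No member probe was called in HI at either time (adjusted p below 0.05 and a fold change of at least 1.5), of 9 tested at 3 h and 7 at 12 h. Over all probes tested, 3.79% were called at 3 h and 0.0105% at 12 h, with 4 member probes (Grin3b among them) at an unadjusted p below 0.05 at 3 h and 5 at 12 h, against 36.1% and 27.5% of all probes. The methods' t-test without adjustment passed 0 member probes at 3 h, where 3.05% of all probes passed. The median ratio of the member probes was 0.26 at 3 h and 0.57 at 12 h, beside medians of -0.02 and 0.00 over all probes. When 1 of the 3 arrays at 12 h was left out in turn, 0 to 4 member probes were called. The 4 were called without replicate 3 (Grin1 probe 1, both Grin2b probes and Grin2d), where 3281 probes of the whole array were called instead of 2. Replicate 3 had the lowest ratio of each of these 4 probes, so leaving it out raises their means by construction. On replicates 1 and 2, Grin2d was well above background in Cy5 but not in Cy3. It therefore entered that fit through the channel in which it was higher. On the log2 ratio scale, summed neuronal markers in HI were at -0.09 to 0.06 at the earlier time and -0.21 to 0.24 at the later, and astrocyte markers at 0.02 to 0.13 and 0.17 to 0.40. Summed choroid plexus markers were at 0.43 to 1.13 at 12 h, blood markers at 0.01 to 0.75, microglial markers at -0.14 to 0.00 and oligodendrocyte lineage markers at 0.08 to 0.23. The part of these cell types in the subunit ratios was not tested.

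**Figure D2:**
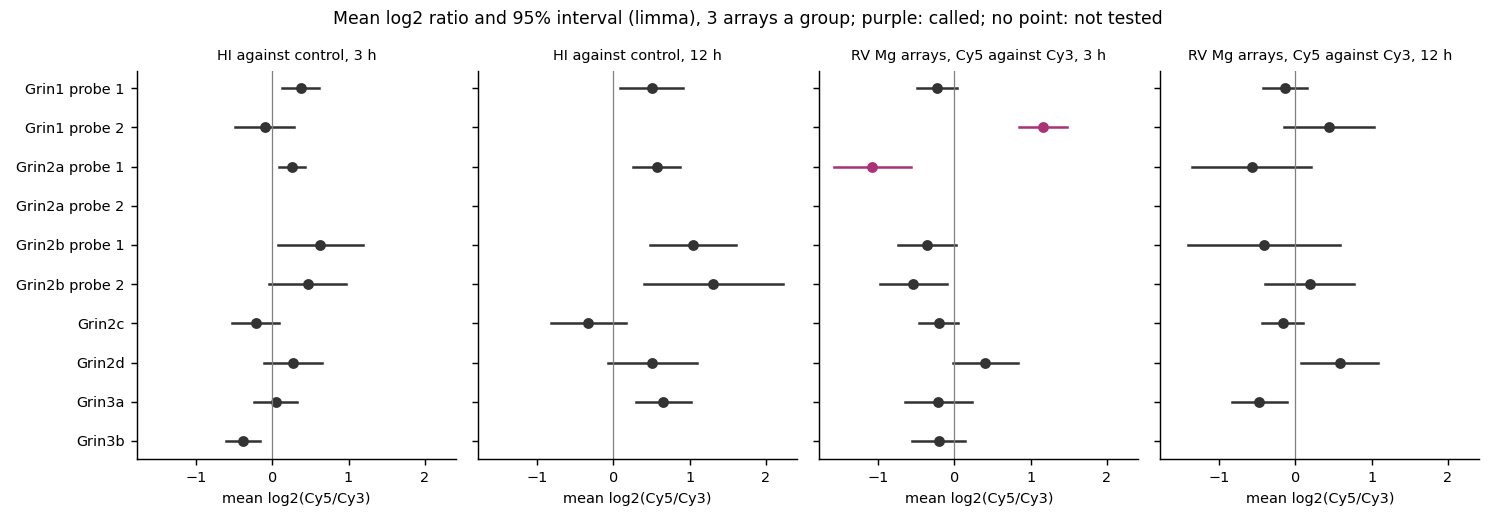
Mean log2 ratio of Cy5 to Cy3 (horizontal axis, points) with its 95% interval from limma (lines) for each member probe tested (vertical axis) in the HI and RV Mg groups, 3 arrays each. Purple marks the called probes, Grin1 probe 2 at 1.17 and Grin2a probe 1 at -1.07 at 3 h on the RV Mg arrays; the Grin2b intervals at 12 h of HI lay above 0.

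On the RV Mg arrays at 3 h, Grin1 and Grin2a each had a called probe, in opposite directions. Grin2a probe 1 was lower in Cy5 on all 3 arrays, at -1.61, -1.07 and -0.54, with a mean of -1.07 ± 0.54 (SD, n = 3, limma adjusted p = 0.0303). Grin1 probe 2 was higher in Cy5, at 1.45, 1.06 and 0.99, with a mean of 1.17 ± 0.25 (adjusted p = 0.00936). Grin1 probe 1 did not follow it, at -0.38, -0.23 and -0.08, with a mean of -0.23 ± 0.15 (adjusted p = 0.215). These were 2 of 9 member probes tested, where 7.63% of all probes were called, 30.2% had an unadjusted p below 0.05 and 51.3% had all 3 arrays on 1 side of 0. The methods' t-test without adjustment passed Grin1 probe 2 alone of the members, and 6.26% of all probes. If Cy5 held MgHI, Grin2a was lower and Grin1 probe 2 higher in MgHI than in the other pool, and the reverse if it held HI.

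The calls depended on the background correction. Grin1 probe 2 was well above background on 2 of 3 arrays in Cy3, and its mean was 0.30 (adjusted p = 0.0873) after normexp correction and loess and 0.43 (adjusted p = 0.0441) without background subtraction. Grin2a probe 1, above background in both channels on all 3 arrays, was at -0.47 (adjusted p = 0.0517) after normexp and loess and at -0.60 (adjusted p = 0.0239) without background subtraction. All 3 processings kept both signs.

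At 12 h, limma called 0% of all probes on the RV Mg arrays and no member probe. An unadjusted p below 0.05 was found for 26.6% of all probes and 2 member probes, and the methods' t-test without adjustment passed 2.84% and 0. Grin2a probe 1 was at -0.53, -1.41 and 0.22, with a mean of -0.57 ± 0.82 (SD, n = 3, limma adjusted p = 0.289), and Grin1 probe 2 at 0.81, 0.77 and -0.24 (0.44 ± 0.60, adjusted p = 0.282). The signs of the 3 h calls were found again on 2 of 3 arrays for each. Grin1 probe 2 was well above background in Cy3 on none of these arrays and in Cy5 on 2 of 3, which bounds Cy5 over Cy3 at 1.04-fold or more. Grin3a was lower in Cy5 on all 3 arrays, at -0.28, -0.82 and -0.31 (-0.47 ± 0.30, adjusted p = 0.128), and Grin2d higher, at 1.14, 0.37 and 0.23 (0.58 ± 0.49, adjusted p = 0.150). Grin2d was well above background in Cy3 on 1 of 3 arrays and in Cy5 on all 3. It thus entered the test through the channel in which it was higher. All arrays lay on 1 side of 0 for 51.8% of the probes tested at this time. The pair of Grin2b probes gave means of -0.36 and -0.54 at 3 h and of -0.41 and 0.19 at 12 h, with adjusted p from 0.112 to 0.634. Grin2c stayed within -0.31 and -0.01 on the 6 RV Mg arrays, and Grin3b had a mean of -0.20 ± 0.30 at 3 h (adjusted p = 0.375).

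Differences between times on the RV Mg arrays passed no adjusted threshold. The difference of Grin2b probe 2 between 12 h and 3 h was 0.72 (limma adjusted p = 0.999), free of overlap, which held for 8.66% of the probes tested, while 0% of them were called and 4.09% had an unadjusted p below 0.05. Grin1 probe 2 had only a bound at 12 h, as given above, so its difference between times cannot be sized.

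Because the channel layout of the RV Mg arrays was not settled, the same dye was compared between RV Mg and RV PBS arrays, on single-channel log2 signals centred on the 75th percentile of each array. Grin2b was higher in Cy3 of the RV Mg arrays than in Cy3 of the RV PBS arrays, which held control brain, at both times and with both probes. At 3 h, probe 1 was at -0.92, -0.33 and -1.32 on the RV Mg arrays and at -1.92, -1.72 and -1.99 on the RV PBS arrays. Probe 2 was at -1.48, -0.99 and -2.15 against -2.67, -2.33 and -2.41. At 12 h, probe 1 was at -1.66, -1.42 and -2.19 against -2.20, -3.04 and -2.59, and probe 2 at -2.75, -2.56 and -3.36 against -3.61, -4.35 and -3.53. The groups did not overlap in any of these 4 comparisons, as was so for 21% (3 h) and 20.6% (12 h) of all probes. Control Cy3 of Experiment 1, on other slides, had means with probe 1 of -1.25 ± 0.49 at 3 h and -1.85 ± 0.35 at 12 h (SD, n = 4). With probe 2 they were -0.71 ± 0.52 and -3.45 ± 1.47. The RV Mg arrays overlapped these controls at both times with both probes, so the difference holds against the RV PBS controls only.

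The difference of Grin2b in Cy3 was 1.02 (95% interval 0.45 to 1.58, limma adjusted p = 0.156) and 0.93 (0.28 to 1.58, adjusted p = 0.233) at 3 h with probes 1 and 2. At 12 h it was 0.86 (0.20 to 1.51) and 0.94 (0.25 to 1.63), both with an adjusted p of 0.341. Within slides, the differences were 1.19 and 1.26 on the slide of replicates 1 and 2 at 3 h, 0.66 and 0.26 on the next, and 0.54 to 1.01 on the slides of the 12 h arrays, of 1 sign throughout. No member probe was called in Cy3 by limma, where 0.291% of all probes were at 3 h and 0% at 12 h, and 4 and 2 member probes had an unadjusted p below 0.05, as did 13.2% and 13.5% of all probes. With the replicate number as a block, 2 member probes were called at 3 h, Grin2b probe 1 (limma adjusted p = 0.0429) and Grin2a probe 1 (difference 0.83, adjusted p = 0.0475), and 253 probes in all instead of 54. Without RV Mg replicate 3 at 3 h, both Grin2b probes were called, with differences of 1.25 and 1.24 (limma adjusted p = 0.0461 and 0.0403). Replicate 3 was the RV Mg array with the lowest Cy3 signal of both probes, so leaving it out raises the differences by construction. Over all omissions of 1 array, 0 to 2 member probes were called. In Cy5, Grin2b differed little at 3 h, by 0.04 (-0.98 to 1.06) with probe 1 and -0.07 (-1.07 to 0.94) with probe 2, and these intervals are wide. The HI ratios, the Cy3 and the Cy5 comparisons share the RV PBS arrays and are not independent of each other.

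Grin1 probe 1 was lower in Cy5 of the RV Mg arrays than in Cy5 of the RV PBS arrays at 3 h, and Grin1 probe 2 was not. Grin2a probe 1 differed by -0.49 (limma adjusted p = 0.161) in the same comparison. Probe 1 was at -0.78, -0.33 and -0.67 on the RV Mg arrays and at -0.08, 0.18 and 0.00 on the RV PBS arrays at 3 h, without overlap. The difference was -0.63 (95% interval -0.96 to -0.29, limma adjusted p = 0.0353), the single member probe called where 5.99% of all probes were. Leaving out RV Mg replicate 1 or 3, or any of the 3 RV PBS replicates, ended the call, with differences between -0.53 and -0.68, and leaving out RV Mg replicate 2 kept it at -0.76. The difference was -0.60 on the slide of replicates 1 and 2 and -0.67 on the other.

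At 12 h, the Cy5 difference of Grin1 probe 1 was -0.78 (-1.41 to -0.15, limma adjusted p = 0.315), again without overlap and where 0% of the probes were called. Its arrays were at -0.72, -1.13 and -1.17 against 0.32, -0.48 and -0.52. In Cy5, 34.2% (3 h) and 21.5% (12 h) of all probes were free of overlap, and 28.5% and 13.1% had an unadjusted p below 0.05. In Cy3, probe 1 of Grin1 differed by -0.03 (-0.39 to 0.33, adjusted p = 0.957) at 3 h and by -0.15 (-0.58 to 0.29, adjusted p = 0.707) at 12 h. Grin1 probe 2 went the other way in Cy5 at 3 h, by 0.82 (0.18 to 1.47, adjusted p = 0.0997), with 1.22 on the slide of replicates 1 and 2 and 0.03 on the other. Grin3a and Grin2a probe 1 were lower in Cy5 of the RV Mg arrays at 12 h by -1.03 (adjusted p = 0.424) and -1.09 (adjusted p = 0.418), with overlapping arrays.

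**Figure D3:**
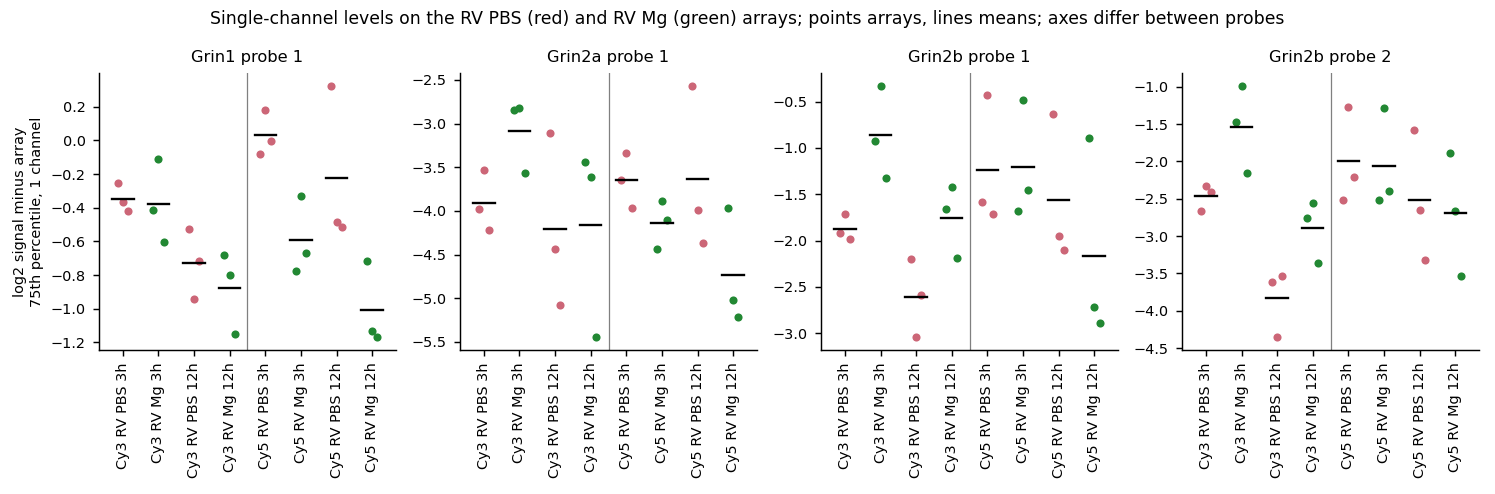
Single-channel log2 signal minus the array's 75th percentile (vertical axis, different for each probe) of Grin1 probe 1, Grin2a probe 1 and both Grin2b probes on the RV PBS (red) and RV Mg (green) arrays, by channel and time (horizontal axis). Points are arrays and lines means; in Cy3, the RV Mg arrays lay above the RV PBS arrays for Grin2b, and in Cy5 below them for Grin1.

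After MgSO4 alone, no subunit probe was called at any time. The limma test called 0% of all probes tested at 3 and 12 h, 0.0283% at 6 h and 0.00554% at 24 h. In the order of the times, 9.03%, 13.2%, 15.7% and 11.1% of all probes had an unadjusted p below 0.05, and 0.605%, 1.09%, 1.21% and 0.41% passed the methods' t-test without adjustment, no member probe among the latter. The member probes tested numbered 9, 7, 7 and 6. A single one had an unadjusted p below 0.05, Grin2b probe 2 at 12 h. At 6 h, weighting the arrays by their quality (arrayWeights) called both Grin1 probes, at -0.79 each (limma adjusted p = 0.0409 and 0.0494), and 715 probes in all instead of 5. Grin1 probe 2 was well above background there on 5 of 7 arrays in Cy3 and 2 in Cy5. It thus entered the test mainly through the channel in which it was higher, and its ratio is poorly sized.

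At 6 h, the ratios of Grin1 followed the slide. Probe 1 was at -1.21 and -1.46 on slide 4 (replicates 2 and 6), at 0.48 and 0.28 on slide 5 (replicates 3 and 7), at -0.73 and -0.19 on slide 3 (replicates 1 and 5) and at -0.63 on slide 6 (replicate 4). Probe 2 had the same sign on each of the 7 arrays, from -1.51 to 0.79. It was not well above background in Cy5 on the array at -1.51, nor in either channel on the array at 0.79. The mean over the 7 arrays was -0.49 ± 0.72 with probe 1 (SD, limma adjusted p = 0.407) and -0.43 ± 0.84 with probe 2 (adjusted p = 0.515).

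The other subunits at 6 h divided in part along the same slides. Grin2d, not tested at this time, was at -1.67 and -1.23 on slide 4 and at 0.90 and 0.55 on slide 5, and was well above background on 2 of 7 arrays in Cy3 and none in Cy5. Grin2b probe 2 was at -0.45 and -0.46 on slide 4 and at 1.03 and 1.47 on slide 5, with a mean over all arrays of 0.01 ± 1.01 (adjusted p = 0.989, limma, n = 7). Grin2b probe 1 had a mean of -0.09 ± 0.80 (adjusted p = 0.901). Grin2c was at -0.50 and -0.38 against 0.35 and 1.25, with a mean of 0.05 ± 0.61 (adjusted p = 0.932). Grin3a ran from -1.67 on slide 3 to 1.42 on slide 5 with a median of -0.26 and a mean of -0.50 ± 1.16 (adjusted p = 0.575). The values of 1.47 (Grin2b probe 2), 1.25 (Grin2c) and 1.42 (Grin3a) were all on replicate 7, where these probes were not well above background in Cy3. Grin2a probe 1 did not divide in this way, with its highest values of 2.04 on slide 6 and 1.72 on slide 5 and a mean of 0.41 ± 1.05 (adjusted p = 0.618). It was well above background in Cy5 alone on the array at 2.04 and in neither channel on that at 1.72, so these values are poorly sized.

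Markers of cell types moved with these slides. Summed neuronal markers were at -0.48 and -0.49 on the slide 4 arrays of 6 h and at 0.24 and 0.19 on those of slide 5, and oligodendrocyte lineage markers at -0.77 and -0.82 against 0.19 and 0.29. Over the 7 arrays the neuronal sum ran from -0.49 to 0.24, the astrocyte sum from -0.38 to 0.27, the microglial sum from -0.30 to 0.88 and the choroid plexus sum from -0.70 to 2.12. The 2.12 was on replicate 7, where 2 of 5 choroid plexus markers were well above background in Cy3. Blood markers were at 0.01 and -0.06 on the slide 4 arrays and at -0.58 and -0.45 on those of slide 5, opposite in order to the neuronal markers. Endothelial markers were at -0.48 and -0.55 against -0.07 and -0.16. On the slide 5 arrays, 3 and 2 of 6 endothelial markers were well above background in Cy3. The share of spots above background in Cy3 was 58.8% and 63.7% on the slide 4 arrays and 49.9% and 45.2% on those of slide 5. The part of these differences in the subunit ratios was not tested.

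The same slides carried arrays of the later times, and their order there was not the same. On slide 4, the 12 h array of MgSO4 (replicate 4) had the highest 12 h ratios of Grin1 probe 1 (1.07), both Grin2b probes (1.20 and 2.03), Grin2c (0.64) and Grin3a (1.65), whereas the 6 h arrays of that slide had the lowest Grin1 ratios of their time. On slide 5, the 12 h array was at 0.59 for Grin1 probe 1 and at 0.67 for Grin3a. The 24 h arrays of slides 4 and 5 were at -0.08 and 0.04 for Grin1 probe 1.

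**Figure D4:**
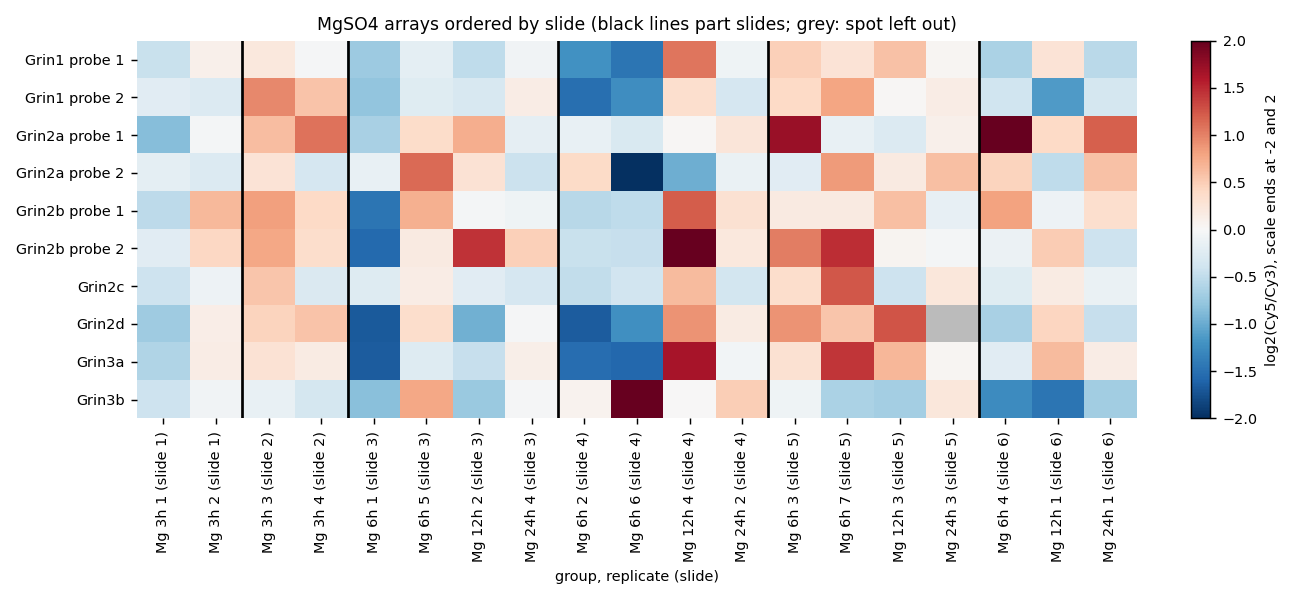
Log2 ratio of Cy5 to Cy3 (colour, red higher in the MgSO4 pool, blue lower, scale ends at -2 and 2) of the 10 member probes (rows) on the 19 arrays of Experiment 1 (columns), ordered by slide. The 6 h arrays of slide 4 were blue for both Grin1 probes, Grin2d and Grin3a, while the 12 h array of that slide was red for them.

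At 12 h of MgSO4, Grin2b probe 2 was above 0 on 4 of 4 arrays, at 0.51, 1.45, 0.05 and 2.03, with a mean of 1.01 ± 0.89 (SD, n = 4, limma adjusted p = 0.304). All arrays of 1 sign were found for 24.5% of the probes tested. Probe 1 of the same gene was at -0.09, -0.04, 0.61 and 1.20, with a mean of 0.42 ± 0.61 (adjusted p = 0.378), so the probes differed in 2 of 4 arrays. Grin3a was at 0.64, -0.46, 0.67 and 1.65 (0.62 ± 0.86, adjusted p = 0.350). Grin1 probe 1 was at 0.28, -0.51, 0.59 and 1.07 (0.36 ± 0.66, adjusted p = 0.454), with replicate 2 the array below 0 for Grin1, as for Grin3a. Summed neuronal markers at 12 h were at 0.12, -0.37, 0.51 and 0.31, below 0 on replicate 2 alone, and blood markers at -0.15, -0.36, -0.58 and -0.51. Their part in the subunit ratios was not tested. Probe 2 of Grin1 had a mean of -0.27 ± 0.63 (adjusted p = 0.542), of the opposite sign. Grin2d, above background on no 12 h array of MgSO4 in either channel, and Grin3b were not tested at this time.

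At 3 h of MgSO4, replicate 1 was the lowest array for Grin1 probe 1 (-0.45), Grin2a probe 1 (-0.85), both Grin2b probes (-0.53 and -0.23), Grin2c (-0.42), Grin2d (-0.71) and Grin3a (-0.60). Summed neuronal markers were at -0.40 on that array and at 0.13, 0.05 and 0.10 on replicates 2 to 4, and their part in these ratios was not tested. The other 3 arrays of Grin1 probe 1 were at 0.10, 0.21 and -0.02, and its mean was -0.04 ± 0.29 (SD, n = 4, limma adjusted p = 0.940). Grin3a had a mean of 0.00 ± 0.41 at 3 h (adjusted p = 0.996) and of 0.06 ± 0.09 at 24 h (adjusted p = 0.818), the narrowest spread of any member tested in Experiment 1. At 24 h, Grin1 probe 1 had a mean of -0.16 ± 0.25 (adjusted p = 0.631) and Grin2a probe 1 of 0.34 ± 0.60 (adjusted p = 0.583). Adjusted p values of the other members tested lay between 0.589 and 0.930 at 3 h and between 0.659 and 0.896 at 24 h.

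Change across the 4 times of MgSO4 was tested for the 6 member probes measured in every group. Grin3a had the widest range of means (1.13, limma F test, adjusted p = 0.926), followed by Grin2b probe 2 (1.00, adjusted p = 0.926) and Grin1 probe 1 (0.85, adjusted p = 0.926). No probe of the whole array was called (0%), and 3.87% had an unadjusted p below 0.05. Over 6, 12 and 24 h with the slide as a block, a fit chosen after seeing the data, the adjusted p was 0.611 for Grin1 probe 1 and Grin3a and 0.617 for Grin2b probe 2.

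The Cy3 level of a probe was followed across groups, since Cy3 held control brain in Experiments 1 and 3. Grin1 probe 1 was highest at 3 h of Experiment 1 (0.02 ± 0.46, SD, n = 4, log2 signal minus the 75th percentile) and lowest at 12 h of Experiment 1 (-1.04 ± 0.27, n = 4), and every pair of neighbours in the order of the 8 groups overlapped. Grin2b probe 2 ran from -0.71 ± 0.52 at 3 h of Experiment 1 to -3.83 ± 0.45 at 12 h of Experiment 3, with a gap between the RV Mg arrays (-1.54 ± 0.58) and the RV PBS arrays (-2.47 ± 0.18) of 3 h. Grin2b probe 1 had a gap between the RV PBS arrays of 3 h (-1.87 ± 0.14) and 12 h (-2.61 ± 0.42). The neighbours in the order of Grin2a probe 1, Grin2c and Grin3a all overlapped. The 3 h arrays of Experiment 1 lay on slides of their own, so time and slide cannot be told apart in their levels, while its 6, 12 and 24 h arrays shared slides.

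Across all 31 arrays, log2 ratios of some subunits moved together. The ratio of Grin1 probe 1 correlated with that of Grin3a (Pearson r = 0.84) and Grin2d (r = 0.82), and the pair of Grin2b probes with each other (r = 0.74). The pair of Grin1 probes had an r of 0.34 and that of Grin2a probes of -0.09. Among 13118 genes measured in every group, the ratios most like Grin1 were those of Trim46 (r = 0.97), Clip3 (0.96) and Pfkm (0.96), and Grin3a ranked 604 of them. Those most like Grin2b were Pdzd2 (0.91), Ppp1r12a (0.89) and Gpr26 (0.88), and those most like Grin3a were Unc5c (0.91), Dnm1 (0.91) and Spef2 (0.91). For Grin2a they were Fbrsl1 (0.83), Pnmal2 (0.83) and Lrrc8b (0.80), and for Grin2c Nhlrc2 (0.78), Tfap2c (0.76) and Efhd1 (0.75). The 31 points share slides, groups and array quality, and these r are a description.

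The partners and targets of the receptor were followed as lists. The activity-dependent transcription targets, genes that calcium entry can switch on, had 12 of 15 tested called higher in HI at 3 h and none lower, against 2.43% of all probes called higher. Receptor activity and calcium entry were not measured, and their part in these ratios was not tested. Fos (5.52), Fosb (3.63), Atf3 (3.57) and Egr1 (2.83) had the largest mean log2 ratios, and the median of the list was 2.14 beside -0.03 over all genes. At 12 h of HI, 0 of 14 were called by limma, with 5 higher at an unadjusted p below 0.05, and Fos was at 2.69 ± 1.00 (SD, n = 3, limma adjusted p = 0.0736). In single channels at 3 h, 7 of 14 of these targets were called higher in Cy3 of the RV Mg than of the RV PBS arrays. There, 0.291% of all probes were called, and the median was 2.04 beside -0.05 over all genes. In Cy5, 1 of 15 was called, where 5.99% of all probes were (median 0.06 beside -0.03). For Cy5 against Cy3 of the RV Mg arrays at 3 h, the median of the list was 0.00 beside -0.04 over all genes. As a list, these targets were thus about as high in Cy3 as in Cy5 of those arrays.

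The other 4 lists had 0 called genes in HI by limma, with 11 genes higher and 4 lower at an unadjusted p below 0.05 at 3 h, and 6 higher and 5 lower at 12 h, of 59 tested at each time. Over all probes these shares were 36.1% and 27.5%. At 12 h, the scaffold partners Dlgap1, a PSD-95-binding protein gene, and Dlg2, which encodes the scaffold PSD-93, were at 0.78 ± 0.37 and 0.75 ± 0.35 (SD, n = 3, limma adjusted p = 0.0862 and 0.0867). At 3 h, 7 of 22 scaffold partners were higher and 1 lower at an unadjusted p below 0.05, a share near that of all probes. Among the kinases and phosphatases of the receptor, Cdk5, the neuronal kinase gene, was at -0.32 ± 0.09 at 3 h (adjusted p = 0.0441), under the 1.5-fold threshold. The list of co-agonist and glycine supply had a median of 0.01 at 3 h and 0.11 at 12 h, against -0.03 and 0.00 over all genes.

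On the RV Mg arrays at 3 h, 5 of 76 list entries tested were called, all higher in Cy5. This share was near the 6.14% of all probes called higher in Cy5. Homer1 stands in both the scaffold and the activity-dependent list and is counted in each. They included Junb (1.46) and Nr4a3 (1.06) of 16 activity-dependent targets tested, Calm2 (0.85), a calmodulin gene, of 13 effectors of calcium entry, and Dlg1 (0.59), the scaffold SAP97, of 22 partners. At 12 h, 0 genes of the 5 lists were called by limma. Of 73 list entries tested, 13 were higher in Cy5 and 1 lower at an unadjusted p below 0.05, beside 26.6% of all probes. After MgSO4 alone, 0 genes of the lists were called by limma at any time. At 12 h of MgSO4, 19 of 73 entries of the 5 lists were higher and 1 lower at an unadjusted p below 0.05, where 15.7% of all probes had such a p. The 19 were 7 of 17 kinases and phosphatases, 6 of 22 scaffold partners, 4 of 14 activity-dependent targets and 2 of 12 effectors of calcium entry.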

How the data were processed

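The deposited intensity files hold Cy3 and Cy5 processed signals of 44397 features, which the authors background-subtracted, detrended and dye-normalized (LOWESS) in Agilent Feature Extraction 10.5.1.1, per the file headers. The authors' deposited series table gives log10 ratios and equalled the files on 30 arrays that hold them. Log2(Cy5/Cy3) was computed without outlier spots. Probes were named through RefSeq accessions (GRCm38.p6 table; 27427 of 39429 probes, 69.6%), without Rik symbols. limma 3.58.1 (R 4.3.3, with data.table, version 1.17.8) tested each group against 0, with Benjamini-Hochberg adjustment over all probes tested, and contrasts between times and channels. Scripts were tested on simulated data. A probe was called at an adjusted p below 0.05 and a 1.5-fold change. Python 3.11.15 read the files. Single channels were centred on the 75th percentile. Probe genes' positions are not given, as the files name another build. Members and lists were chosen with earlier results of these data known. All members are named; of each list, up to 4 called genes, or the 2 with the largest ratios. Equal replicate numbers of RV Mg and RV PBS arrays, which share slides, deviated together in Cy3 at 3 h (r = 0.17, 0.37 and 0.40) and in Cy5 at 3 h (0.43, 0.57 and 0.23) and 12 h (0.38, 0.33 and 0.53), but not in Cy3 at 12 h (0.17, -0.17 and 0.21). The number of arrays limits precision, as does signal over background for dim probes. One item of the lists is not reported here. Alternatives are given in the closing section.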

Additional observations from a re-analysis of the deposited data

Results flagged for a closer look

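In 39 groups of 4 to 7 arrays, one per member probe and time of MgSO4, 3 had an array set apart from the others by a gap that chance alone gives in about 5% of groups. Grin3b was at 5.12 on replicate 6 at 6 h, with the other 6 arrays between -1.26 and 0.78. The gap took up 68.0% of the range. Grin2a probe 2 was at -2.29 on the same array, with the others between -0.23 and 1.13 (60.3% of the range). Both probes were untested at this time. Grin3a was at -0.60 on replicate 1 at 3 h, where the other 3 arrays were between 0.16 and 0.29 (84.9% of the range). On the array at 0.29 (replicate 3), Grin3a was not well above background in either channel.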

How the results depend on the processing

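Counts of called member probes moved under these alternatives. They went from 0 to 2 at 6 h of MgSO4 with arrayWeights. In HI at 3 h, they went from 0 to 1 without background subtraction and to 1 with the adjusted p alone, and in HI at 12 h from 0 to 4 with arrayWeights, to 1 with the methods' t-test unadjusted, and to 0 to 4 when leaving out 1 array. On the RV Mg arrays at 3 h, 2 became 0 with normexp and loess or the methods' t-test adjusted, 1 without background subtraction, without a filter, with probes above background in both channels on every array or with the methods' t-test unadjusted, and 2 to 3 when leaving out 1 array. The difference between 12 h and 3 h of HI had 1 with arrayWeights. In Cy3 at 3 h, 0 became 1 with the slide as a fixed block, 2 with the replicate block and 0 to 2 when leaving out 1 array. In Cy5 at 3 h, 1 became 0 without a filter and 0 to 1 when leaving out 1 array. The cause was not tested. All other counts stayed as given, including those of the replicate block in the other comparisons, where no member probe changed its call; across the times of HI, of RV Mg and of MgSO4 the numbers did not pair the arrays, and the block called 0 member probes. Of 1322 single-probe values under alternatives, 102 changed sign, and none of those was a called value. The slide as a random block could not be fitted for the 3-array groups. Across 6, 12 and 24 h of MgSO4, 0 members were called with or without the slide block, fits chosen after seeing the data. Counts over all probes varied more widely: in HI at 12 h, 2 were called, against 2820 with arrayWeights and 3281 without replicate 3. Depth limits Grin2d, Grin3b and the second probes of Grin1 and Grin2a.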
